A study of Homo sapiens with 4 samples.

Results

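During the path from human induced pluripotent stem cells to blood progenitors, 97 genes were lower in APLNR+ mesoderm cells than before and after that stage. They were selected on measured values. A gene had 5 FPKM or more in each of BC1, CD31+CD34+ and CD43+ cells, and its log2(FPKM + 1) in APLNR+ cells was lower by 1 or more than in each of these 3. FPKM is a fragment number scaled to the length of the transcript and the depth of the library. Symbols starting with ZNF, LINC, HIST or MIR were left out. The minimum was reached by 7458 of the 58274 gene identifiers, of which the 97 are 1.3%. Since the drop in APLNR+ chose the genes, it is described here and not tested.

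BC1 cells are a line of human induced pluripotent stem cells, and the 3 other populations were sorted from its differentiating cultures. The cultures received activin A and BMP4 to form mesoderm and then VEGF and bFGF, in a chemically defined medium without stromal cells. APLNR+ cells were collected at day 2, CD31+CD34+ cells, known as HEPs, for hemogenic endothelial progenitors, at day 5, and CD43+ cells, called hematopoietic progenitor cells (HPCs), at day 8, each as 1 RNA library beside 1 of undifferentiated BC1 cells. With 1 library of 1 line per population there is no replicate, so differences between cultures, sorts and populations cannot be told apart, and no test or p-value is given.

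APLNR, the receptor of the apelin peptides, marks the mesoderm that forms after cells leave pluripotency and from which endothelium and blood derive. Hemogenic endothelium is the lining of early vessels that releases blood cells, and CD43, a sialoprotein encoded by SPN, appears on the first of these. A gene in use both before and after mesoderm can be lower at the stage between.

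The sorted populations had the sort markers of their labels. APLNR was listed at 0.782 FPKM in BC1, 1073 in APLNR+ cells, 209 in CD31+CD34+ and 25 in CD43+. The 6 mesoderm markers summed to 2218 FPKM in APLNR+ and 2.52 in BC1. CD34 had 102 FPKM in CD31+CD34+ against 0.645 in APLNR+ and 42.6 in CD43+. SPN had 92.4 FPKM in CD43+ against 0.294 in APLNR+ and 11.7 in CD31+CD34+. PECAM1, the gene of CD31, had 93.1 FPKM in CD31+CD34+ and 126 in CD43+. The later populations thus shared sort markers. POU5F1, the central pluripotency factor, still had 573 FPKM in APLNR+ against 1997 in BC1, while SOX2 had 0.766 against 172. The 4 stromal markers summed to 405 FPKM in CD31+CD34+ against 48.6 in BC1, 103 in APLNR+ and 49.1 in CD43+. COL1A1 and COL1A2 made up most of these sums, while PDGFRA was highest in APLNR+, with 14.3 FPKM against 4.96 in CD31+CD34+. Of the 4 neural markers, OTX2, also an early embryonic factor, had 82.8 FPKM in APLNR+ against 20.5 in BC1, and NES 77.8 against 50.9. PAX6 and SOX1 were under 1 FPKM in all 4 libraries. Of the 4 endoderm markers, SOX17 alone reached 1 FPKM in APLNR+, with 16.6. Depth was alike, between 19700000 and 23600000 mapped fragments per library as fitted from how low FPKM values are spaced, and 1 FPKM of a transcript of 2000 bases stood for 34.3 to 40.6 fragments. Counting intervals below are exact Clopper-Pearson 95% intervals from these fragments and cover counting error only.

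The word silenced was not borne out by the levels for most of the genes. In APLNR+, 2 were listed at 0 and 6 in all were under 1 FPKM. A further 56 lay between 1 and 5 FPKM, and 35 were at 5 FPKM or more, 15 of them at 10 or more. The median of the members was 13.6 FPKM in BC1, 3.61 in APLNR+ cells, 22.3 in CD31+CD34+ and 25 in CD43+. For the members above 0, APLNR+ held between 4.85% and 47.8% of the BC1 level, and the median over all was 30.6%. They are therefore called genes low only in APLNR+. In bulk RNA, fewer cells with a transcript and less transcript per cell cannot be told apart.

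The same rule was applied with each other library in the place of APLNR+. It found 278 genes low only in BC1, 3.66% of those with the minimum elsewhere. It found 70 (0.948%) low only in CD31+CD34+ and 480 (6.19%) low only in CD43+. Both intermediate populations thus had fewer such genes than the first and last populations, which are the ends of the path and have 1 neighbour each. The mirrored rule gave 433 genes high only in APLNR+, 4.68% of 9256 genes with 5 FPKM or more there. By these counts, more genes stood above the other libraries in APLNR+ than below them, over unequal numbers of eligible genes. The same held for every library, with 543 high only against 278 low only in BC1. The numbers were 513 against 70 in CD31+CD34+ and 590 against 480 in CD43+. The mirrored rule asks for the minimum in the named library alone, so the rules also differ in kind.

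**Figure D1:**
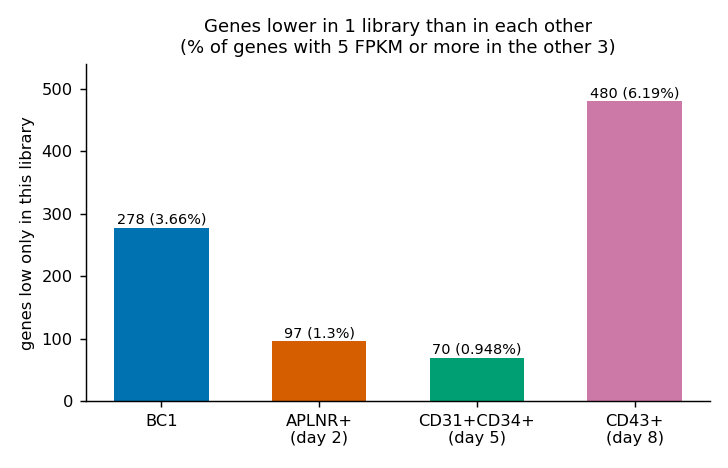
Bars give the number of genes lower by 1 or more on the log2(FPKM + 1) scale in 1 library than in each of the 3 others, with the percentage of genes that had 5 FPKM or more in those others. APLNR+ with 97 genes and CD31+CD34+ with 70 are below BC1 with 278 and CD43+ with 480.

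The drop of a gene, meaning the smallest of its 3 log2(FPKM + 1) differences, was between 1 and 1.5 for 62 members, between 1.5 and 2 for 19, and 2 or more for 16. Its median was 1.34. The nearest level was that in BC1 for 64 members, in CD31+CD34+ for 18 and in CD43+ for 15. Just inside the threshold were ULK3, a kinase related to autophagy kinases, with 7.96 FPKM in APLNR+ and 17 in its lowest other library, FOXO4 with 5.40 and 11.9, and SRSF8 with 3.33 and 7.76, each with a drop of 1.01. Just outside were EPB41 with 14.6 and 30.1 FPKM and a drop of 0.997, NET1 with 25.9 and 52.6 and a drop of 0.996, and INTS9 with 4.53 and 10.02 and a drop of 0.995. The threshold therefore separates genes of nearly equal drop. Counting intervals of the folds over APLNR+ could be computed for 95 members. Since the selection used the same values, those printed below describe precision only.

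The promoters of 4 members are printed because these genes lead the results that follow: RASGRP2 with the largest drop of a protein-coding gene, S100A4 with the highest level in CD43+ among the 25 largest drops of protein-coding genes, STAT3 as the signal transducer and TIE1 as the endothelial receptor. Each is the stretch of 250 bases before the RefSeq start on GRCh38.p14, 5′ to 3′ on the strand of the gene. They lie at chr11:64745349-64745598 (minus strand) for RASGRP2, chr1:153545807-153546056 (minus strand) for S100A4, chr17:42388443-42388692 (minus strand) for STAT3 and chr1:43300732-43300981 (plus strand) for TIE1. Capitals mark CCGGAA, an ETS core, in RASGRP2 and STAT3, CCAAT in STAT3 and TIE1, and in S100A4 the E-box CAGGTG, read by SNAI and ZEB factors, and TATAAA, each on either strand.
RASGRP2: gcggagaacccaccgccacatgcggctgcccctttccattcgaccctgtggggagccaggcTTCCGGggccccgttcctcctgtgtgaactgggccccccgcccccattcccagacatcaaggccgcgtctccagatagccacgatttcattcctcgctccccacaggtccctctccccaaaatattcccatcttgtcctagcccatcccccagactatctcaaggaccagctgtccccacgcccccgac
S100A4: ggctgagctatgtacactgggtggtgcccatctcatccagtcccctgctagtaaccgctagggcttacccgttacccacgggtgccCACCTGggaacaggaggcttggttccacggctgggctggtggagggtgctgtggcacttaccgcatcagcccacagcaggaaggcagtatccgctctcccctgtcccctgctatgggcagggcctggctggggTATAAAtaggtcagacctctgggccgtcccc
STAT3: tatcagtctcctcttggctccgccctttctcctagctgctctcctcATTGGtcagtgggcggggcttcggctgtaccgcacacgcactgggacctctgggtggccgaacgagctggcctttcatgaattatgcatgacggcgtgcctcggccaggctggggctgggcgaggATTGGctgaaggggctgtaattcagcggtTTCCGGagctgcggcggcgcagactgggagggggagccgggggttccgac
TIE1: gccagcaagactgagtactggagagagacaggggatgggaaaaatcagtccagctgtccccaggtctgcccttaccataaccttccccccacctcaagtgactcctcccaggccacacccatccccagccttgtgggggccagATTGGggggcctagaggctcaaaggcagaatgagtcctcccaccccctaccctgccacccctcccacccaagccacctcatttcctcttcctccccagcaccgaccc

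The 2 largest drops were those of the pseudogenes AC005255.1 and AC027309.2, described with the other non-coding members, and the protein-coding genes with the largest drops follow. RASGRP2, at chr11:64726911-64745456, encodes CalDAG-GEFI, a calcium-responsive activator of the small GTPase RAP1 in platelets. Its level was 31.1 FPKM in BC1, 1.52 in APLNR+ cells, 87.6 in CD31+CD34+ and 136 in CD43+. BC1 was thus 20.4-fold above APLNR+ (95% counting interval 11.7 to 38.9), and the later populations were higher than BC1. IQGAP2, a scaffold of actin and small GTPases at chr5:76403249-76708132, had 19.7, 1.41, 16.5 and 45.2 FPKM in the same order. F2RL2, which it overlaps on the other strand, had 0.0448, 1.75, 221 and 156 FPKM. The strand used in counting is not given in the sources used here. UNC13D, needed for the release of lytic granules, had 12.1, 0.905, 15.7 and 89.8 FPKM. APLNR+ held at most 4.90% of any other level for RASGRP2, 8.55% for IQGAP2 and 7.50% for UNC13D, and CD43+ was the highest library for all 3.

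S100A4, a calcium-binding protein linked to cell motility and used as a mesenchymal marker, lies at chr1:153543613-153550136. It had 53.7 FPKM in BC1, 7.34 in APLNR+ cells, 340 in CD31+CD34+ and 769 in CD43+. The low point in mesoderm was followed by the second highest level of any member in CD43+. TESC, encoding tescalcin, a calcium-binding protein active in megakaryocytes, had 7.84, 0.419, 11 and 60.1 FPKM in the order BC1, APLNR+, CD31+CD34+ and CD43+. Its APLNR+ value rested on about 6 fragments, and the 18.7-fold difference from BC1 had a counting interval of 8.31 to 52.1. TNIK, a kinase that acts with TCF4 in Wnt signaling and on the cytoskeleton, had 20.6, 3.26, 28.1 and 48.4 FPKM.

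Another set of large drops did not end higher in blood progenitors. ICA1, a protein of secretory vesicles and an islet autoantigen, had 32.6 FPKM in BC1, 1.96 in APLNR+ cells, 22.3 in CD31+CD34+ and 19.3 in CD43+. TM7SF3, a membrane protein, had nearly the same level before and after mesoderm, with 53.7, 10.2, 53.1 and 53.1 FPKM. ACAP1, which turns off ARF6 in endosome recycling, had 23.8, 1.22, 9.57 and 15.1 FPKM. BC1 was the highest library for all 3, although for TM7SF3 the later libraries differed from it by only -0.02 on the log2 scale.

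OLFML3, FGFBP3 and WSCD1 peaked in CD31+CD34+ instead. The first of these, a secreted matrix glycoprotein, had 17.7 FPKM in BC1, 1.17 in APLNR+ cells, 37.3 in CD31+CD34+ and 11 in CD43+. FGFBP3, which releases FGFs from the matrix, had 56.9, 3.61, 81.4 and 20.1 FPKM. WSCD1, a sulfotransferase-domain protein, had 27.3, 1.74, 66.7 and 10.9 FPKM. For each of them CD43+ was above APLNR+ but below BC1.

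**Figure D2:**
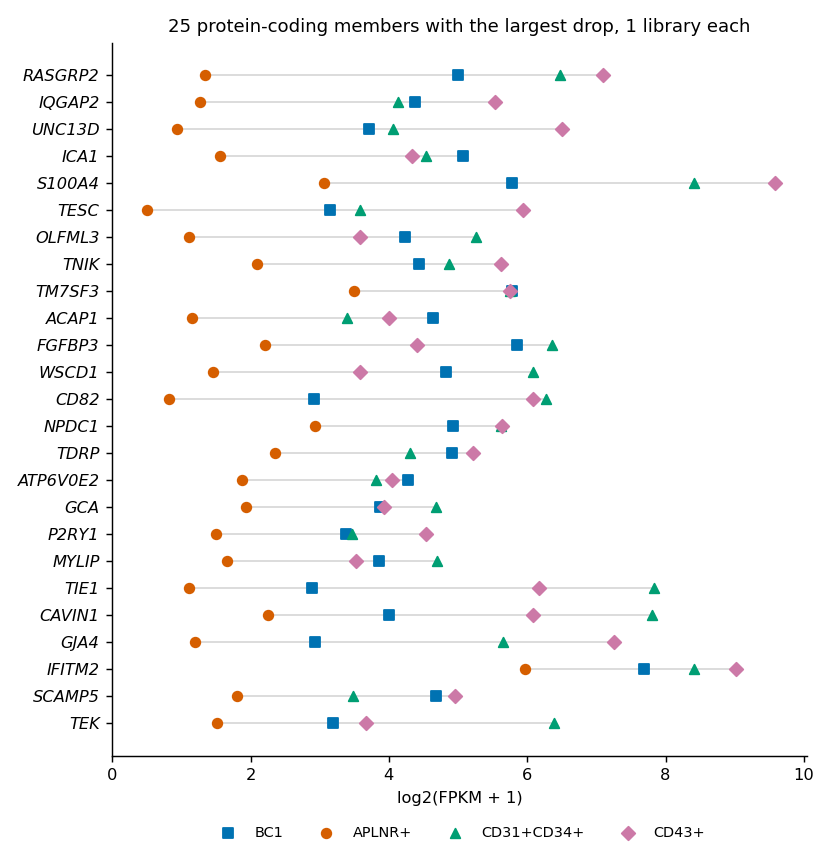
Each row is 1 of the 25 protein-coding members with the largest drop, with 1 point per library on the log2(FPKM + 1) scale and a grey line over the range. The orange APLNR+ point is the leftmost in every row, as the selection requires, while the order of the other 3 differs from gene to gene.

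The levels of BC1, CD31+CD34+ and CD43+ against each other were not ordered by the selection, although a gene that is high in the later populations meets their share of the conditions more readily. In CD31+CD34+, 31 of the 97 members (32%) were higher than in BC1 by 1 or more, beside 12.6% of the 7458 eligible genes, and 5 (5.15%) were lower, beside 7.59%. In CD43+, 42 (43.3%) were higher than in BC1, beside 10.8%, and 5 (5.15%) were lower, beside 9.06%. Between the later populations, 23 members (23.7%) exceeded their CD31+CD34+ level in CD43+, beside 4.18%, and 12 (12.4%) were lower, beside 7.58%. The highest library was CD43+ for 50 members, CD31+CD34+ for 36 and BC1 for 11. In percent this is 51.5%, 37.1% and 11.3% of members, beside 27.6%, 34.4% and 38% of eligible genes in the same order.

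By these differences the members fall into 5 patterns. Both later populations exceeded BC1 by 1 or more in 19 members (19.6%, beside 6.38% of eligible genes), CD31+CD34+ alone in 11 (11.3%, beside 5.98%) and CD43+ alone in 23 (23.7%, beside 4.4%). A further 36 (37.1%, beside 70.7%) were within 1 of BC1 in both, and 8 (8.25%, beside 12.6%) were lower than BC1 by 1 or more in one or both, among them WSCD1, which was also higher in CD31+CD34+. The members within 1 of BC1 in both included STAT3, KIT, COL18A1, ICA1, TM7SF3, NPDC1 and FOSL1.

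**Figure D3:**
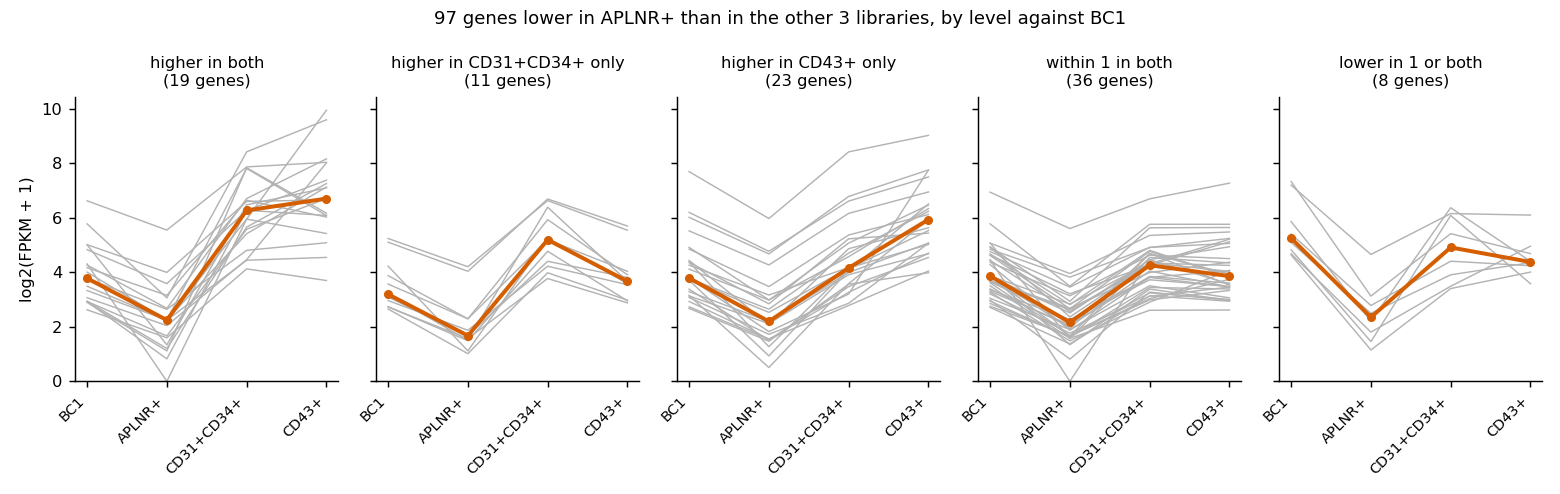
Each grey line is 1 member over the 4 libraries on the log2(FPKM + 1) scale, and the orange line is the median of the panel. Panels split the 97 members by whether CD31+CD34+ and CD43+ were 1 or more above or below BC1, with 19, 11, 23, 36 and 8 genes, and each panel has its lowest median in APLNR+.

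For description the members, once known, were sorted into 10 groups by known role, so the group counts are no independent result. The largest lineage group held 17 genes of platelet and blood cell signaling, whose median went from 10.2 FPKM in BC1 to 2.83 in APLNR+ cells, 23.6 in CD31+CD34+ and 87.3 in CD43+. Of them, 12 were higher by 1 or more in CD43+ than in BC1, 7 in CD31+CD34+, and none was lower in either. Over all 97 members, 43.3% were higher in CD43+ and 32% in CD31+CD34+, and 5.15% were lower in each. Among eligible genes, 10.8% and 12.6% were higher and 9.06% and 7.59% lower, in the same order. ITGA2B, the alpha chain of the platelet fibrinogen receptor and CD41 of early blood progenitors, had 10.2 FPKM in BC1, 3.74 in APLNR+ cells, 60.9 in CD31+CD34+ and 982 in CD43+. It was the member with the highest level in CD43+, yet BC1 was 2.73-fold above APLNR+ (counting interval 2.30 to 3.25). Its partner chain ITGB3, no member, had 0.0753 FPKM in BC1 and 501 in CD43+. Among other blood markers, GATA1 was listed at 0 in BC1 and in APLNR+. RUNX1 had 0.0962 FPKM in BC1 and 4.15 in APLNR+, and SPN had 1.06 and 0.294. PTPRC, the leukocyte marker CD45, had 0.0349 FPKM in BC1 and 0.0320 in CD43+.

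The same group held a receptor, a phospholipase and a pump of calcium signaling. P2RY1, the ADP receptor coupled to calcium release, had 9.40 FPKM in BC1, 1.84 in APLNR+ cells, 10.1 in CD31+CD34+ and 22.3 in CD43+. PLCB2, the phospholipase that such receptors activate, had 6.61, 2.17, 46.7 and 103 FPKM. ATP2A3, the SERCA3 pump that refills calcium stores, had 18.2, 5.38, 103 and 284 FPKM. All 3 belong with RASGRP2 to the calcium signaling of platelets, and in all 4 the order from low to high was APLNR+, BC1, CD31+CD34+ and CD43+, with BC1 and CD31+CD34+ only 0.09 apart on the log2 scale for P2RY1.

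PRKAR2B, a regulatory subunit of protein kinase A, had 7.37 FPKM in BC1, 3.12 in APLNR+ cells, 21.0 in CD31+CD34+ and 257 in CD43+. NBEAL2, required for platelet alpha granules, had 16.3, 6.88, 32.5 and 87.3 FPKM, and STOM, an abundant integral protein of the red cell membrane, had 12.4, 3.79, 41.5 and 138. PIP4K2A, a phosphoinositide kinase listed on 2 rows that were summed, had 8.78, 3.58, 14.9 and 32.6 FPKM. These 4 had the same order of libraries. BCL2L1, the survival factor BCL-XL, had 63.5, 24.5, 109 and 214 FPKM, so it remained well expressed at its lowest point.

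The remaining members of the blood group, other than those given above, were within 1 of BC1 in CD43+. KIT, the stem cell factor receptor, had 5.54 FPKM in BC1, 1.59 in APLNR+ cells, 7.79 in CD31+CD34+ and 6.65 in CD43+. RHOH, a GTPase of blood cells without GTPase activity, had 5.28, 1.02, 14.8 and 6.86 FPKM. FMNL1, a formin of leukocytes, had 6.68, 2.06, 9.84 and 9.45. GCA, encoding grancalcin, had 13.6, 2.83, 24.7 and 14.2, and CRACR2B, a regulator of store-operated calcium entry, 19.6, 7.79, 23.6 and 21.6. Of these 5, RHOH alone was higher in CD31+CD34+ than in BC1 by 1 or more.

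Endothelial receptors, ligands and caveolar proteins formed a group of 5 members, and 4 of them peaked in CD31+CD34+ while GJA4 peaked in CD43+. TIE1, an orphan receptor tyrosine kinase of endothelium, had 6.44 FPKM in BC1, 1.17 in APLNR+ cells, 226 in CD31+CD34+ and 70.8 in CD43+. TEK, the angiopoietin receptor TIE2, had 8.14, 1.85, 82.5 and 11.7 FPKM. The BC1 level of TIE1 was 5.52-fold (counting interval 4.13 to 7.49) and that of TEK 4.40-fold (3.66 to 5.32) above APLNR+. Other endothelial markers were near 0 in BC1, with PECAM1 at 0.303 FPKM, CDH5 at 0.523 and CD34 at 0.236, whereas KDR had 33.1. In APLNR+ they had 0.460, 0.663, 0.645 and 70.0 FPKM in the same order. None of them shared the low point of TIE1 and TEK. Since TIE1, TEK and ITGA2B are themselves markers of the endothelial and hematopoietic lists, those lists are no independent check of them.

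GJA4, the arterial gap junction protein connexin 37, had 6.66 FPKM in BC1, 1.30 in APLNR+ cells, 49.4 in CD31+CD34+ and 151 in CD43+. JAG2, a Notch ligand, had 5.66, 1.80, 26.2 and 6.72 FPKM. CAVIN1, which shapes caveolae, had 15.0, 3.76, 222 and 66.7 FPKM. All 5 genes of the group were higher in CD31+CD34+ than in BC1 by 1 or more, and TIE1, GJA4 and CAVIN1 also in CD43+. Over all 97 members the shares were 32% and 43.3%. Of the other caveolar genes, CAV1 had 8.96 FPKM in BC1, 0.523 in APLNR+ cells, 4.75 in CD31+CD34+ and 0.316 in CD43+, and did not meet the minimum. CAVIN1 is also the one member near another: it lies 13883 bases from STAT3 on chromosome 17, and no other neighbouring members were under 100000 bases apart.

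**Figure D4:**
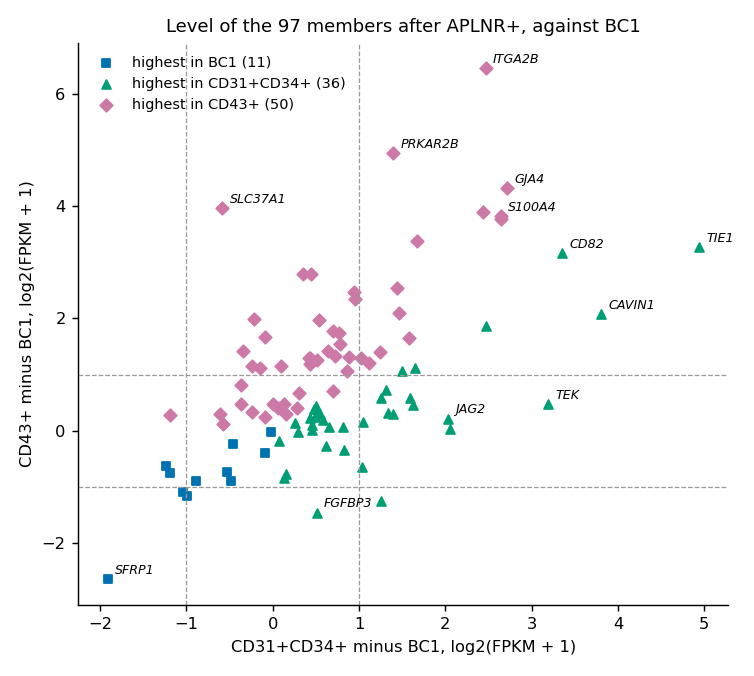
Each point is 1 of the 97 members, placed by its log2(FPKM + 1) difference from BC1 in CD31+CD34+ (horizontal) and CD43+ (vertical), with the shape giving the highest library and dashed lines at 1 and -1. ITGA2B and PRKAR2B are the farthest up, TIE1 the farthest right, and SFRP1 alone is far below BC1 in both.

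A loose group of matrix, junction and secreted proteins held 9 members, among them the tetraspanin CD82 and the sulfotransferase-domain protein WSCD1. Of these 9, 3 were lower in CD43+ than in BC1 by 1 or more, WSCD1 among them. The share was 5.15% of all 97 members and 9.06% of eligible genes. SFRP1, a secreted inhibitor of Wnt ligands, had 159 FPKM in BC1, 7.72 in APLNR+ cells, 41.6 in CD31+CD34+ and 24.7 in CD43+. It was 20.6-fold lower in APLNR+ than in BC1 (counting interval 19.1 to 22.4). Its relative SFRP2, no member, was lower at each later stage, with 244, 39.7, 5.12 and 0.0530 FPKM. CD82, a tetraspanin of stem and blood cells, had 6.56 FPKM in BC1, 0.771 in APLNR+ cells, 76.1 in CD31+CD34+ and 66.7 in CD43+, the APLNR+ value resting on about 5 fragments.

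COL18A1, the collagen that yields endostatin, had 121 FPKM in BC1, 47.5 in APLNR+ cells, 102 in CD31+CD34+ and 153 in CD43+. CLDN10, a claudin of tight junctions, had 24.4, 6.02, 26.9 and 13.2, and TAC3, the precursor of neurokinin B, 8.86, 3.20, 13.4 and 11.1. These 3 stayed above 3 FPKM in APLNR+. FGFBP3, OLFML3 and WSCD1 of this group are given above.

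Interferon response, antigen presentation and cytokine signaling had 4 members. IFITM2, an antiviral membrane protein, had 205 FPKM in BC1, 61.6 in APLNR+ cells, 340 in CD31+CD34+ and 517 in CD43+. HLA-B, a class I antigen-presenting chain, had 72.2, 26.2, 96.5 and 179 FPKM, and UBE2L6, the conjugating enzyme of ISG15, 44.8, 18.2, 70.4 and 122. STAT3, the transcription factor of the interleukin-6 and LIF pathways, had 32.5, 14.5, 39.8 and 43.5. All but STAT3 were higher in CD43+ than in BC1 by 1 or more, beside 43.3% of all 97 members. HLA-C, no member, had 77.9 FPKM in APLNR+ against 75.3 in BC1, so it did not share the low point of HLA-B. Reads of HLA genes, and those of IFITM2 with the overlapping IFITM1 and the similar IFITM3, can be assigned to the wrong copy.

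The cytoskeleton is regulated by 8 members, S100A4, IQGAP2, TNIK and ACAP1 among them. CYFIP2, of the WAVE complex that drives actin branching, had 41.3 FPKM in BC1, 5.87 in APLNR+ cells, 20.2 in CD31+CD34+ and 17.9 in CD43+. SPTBN1, a spectrin chain, had 36.7, 17.4, 97.8 and 45.5 FPKM, and NAV1, a neuron navigator that binds microtubules, 10.8, 3.90, 35.5 and 15.4. SPTBN1 and NAV1 peaked in CD31+CD34+, while CYFIP2 had its highest level in BC1. The summed stromal markers given above, mostly COL1A1 and COL1A2, were also highest in CD31+CD34+, although PDGFRA was not. Their part in the matrix, cytoskeletal and CAVIN1 values there was not tested.

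Another 8 members belong to vesicles and secretion or are best known from neurons. ENO2, the neuronal enolase, had 31.2 FPKM in BC1, 14.9 in APLNR+ cells, 95.6 in CD31+CD34+ and 99.7 in CD43+. SNCG, gamma-synuclein, had 13.7, 3.89, 59.8 and 14, but lies opposite MMRN2, an endothelial gene with 71.5 FPKM in CD31+CD34+, and the strand used in counting is not given in the sources used here. SCAMP5, a carrier protein of synaptic vesicles, had 24.6, 2.49, 10.2 and 30.0, and RAB3C, a GTPase of exocytosis, 9.05, 3.73, 20.7 and 22.3. ICA1, NPDC1, DBNDD2 and TMEM108 complete the group. In it, 4 were higher in CD31+CD34+ than in BC1 by 1 or more and 2 lower by 1 or more, SCAMP5 and DBNDD2. Over all 97 members the shares were 32% and 5.15%.

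The group of metabolism, transport and organelles held 18 members, with medians of 11.4 FPKM in BC1, 2.88 in APLNR+ cells, 12.6 in CD31+CD34+ and 15.4 in CD43+. SLC29A1, the equilibrative nucleoside transporter ENT1, had 145, 24.1, 70.1 and 67.3 FPKM and was lower than in BC1 by 1 or more in both later libraries. SLC37A1, a sugar phosphate exchanger, had 12.8, 2.53, 8.19 and 213 FPKM and so was high in CD43+ only. FAR2, a fatty acyl-CoA reductase, had 17, 7.88, 98.5 and 64.1. IMMP2L, of the mitochondrial inner membrane peptidase, had 12.6, 5.25, 25 and 74.2. The other 14 were SLCO4A1, ME2, FADS3, CLYBL, PGPEP1, PCYOX1L, ATP6V0E2, METTL7A, SCCPDH, C1GALT1C1, RNASET2, DMXL1, TMEM55A and C11orf54. ME2, the mitochondrial malic enzyme, had 26.1, 9.95, 29.1 and 32.3 FPKM.

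A group of 14 members acts in the nucleus, in DNA repair, in protein turnover or as kinases and phosphatases. None of these was lower than BC1 by 1 or more later, beside 5.15% of all 97 members in each later library. IER2, an immediate early gene, had 97.3 FPKM in BC1, 45.7 in APLNR+ cells, 231 in CD31+CD34+ and 260 in CD43+. FOSL1, the AP-1 subunit FRA1, had 13.6, 1.54, 9.42 and 6.83. Of the other AP-1 genes, JUN had 4.68 FPKM in BC1 and 17.8 in APLNR+, and JUNB 2.80 and 12.1, which is the opposite direction to FOSL1.

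RRM2B, the p53-inducible subunit of ribonucleotide reductase, had 23.4 FPKM in BC1, 5.32 in APLNR+ cells, 26.2 in CD31+CD34+ and 13.4 in CD43+. DDB2, of nucleotide excision repair and also a p53 target, had 33.3, 15.4, 102 and 50.7. FOXO4, a transcription factor restrained by AKT, had 11.9, 5.40, 14.9 and 19.7. MYLIP, the ubiquitin ligase that degrades the LDL receptor, had 13.6, 2.14, 24.8 and 10.5, and MARCH2, another membrane-bound ligase whose symbol the table holds as a date, 12.7, 5.23, 26.9 and 32.8. RSF1, SRSF8, MIF4GD, COMMD7, TDRP, ULK3 and PPM1J complete the group. The group of other membrane and unplaced proteins held TM7SF3, TMEM106C, TMEM63A, SBF2, ANKRD33B and LRRC75A. Of these 6, 4 were higher in CD43+ than in BC1 by 1 or more, beside 43.3% of all 97 members.

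In all, 8 members are not protein-coding in GENCODE 29. The processed pseudogenes AC005255.1 (20.9 FPKM in BC1, 0 in APLNR+ cells, 21.1 in CD31+CD34+ and 29.6 in CD43+) and AC027309.2 (18.8, 0, 60.7 and 41.8) were the 2 listed at 0. Their transcripts of 216 and 192 bases are too short for an estimate of fragments, so no fold is given for them. AC009005.1, antisense to BSG, had 6.88, 0.758, 8.66 and 6.79 FPKM. CYTOR, a cytoplasmic long RNA, had 27.4, 11, 75.9 and 165, beside its near-identical copy MIR4435-2HG with 17.9, 7.98, 69.2 and 121, which the symbol rule left out. AL160408.2 overlaps IRF2BP2 on the other strand, and AP001453.3 overlaps PPP1R14B on the same strand. With FLJ20021 and FAR2P1, a copy of part of FAR2, they were at 5.16 FPKM or more in BC1 and at 2.65 or less in APLNR+. HIST1H2BD, LINC01021 and ZNF512 also met the values and were left out by symbol.

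The genes were compared with their closest relatives, chosen after the members were known, in 37 families that held 39 of the members. In these families 45 related genes had 5 FPKM or more in the other 3 libraries, and by the rule each had a drop under 1. Of these, 36 were higher in APLNR+ than in the lowest other library, and the largest drop among the 45 was 0.51, for S100A6. The same share over all eligible genes is not given here, so nothing about the relatives is read from the 36. IQGAP1 had 25.7 FPKM in BC1 and 19.2 in APLNR+, against 19.7 and 1.41 for IQGAP2. CYFIP1 had 21.8 and 30.7, against 41.3 and 5.87 for CYFIP2. FADS1, a desaturase of long fatty acids, had 47.0 and 93.7, against 20.6 and 4.88 for FADS3. In the protein kinase A family PRKAR2A had 30.1 and 76.3 and PRKAR1B 32.9 and 11.9, against 7.37 and 3.12 for PRKAR2B. PRKAR1B was thus also lower in APLNR+ than in BC1, but had 6.22 FPKM in CD31+CD34+ and 3.91 in CD43+. Relatives under the minimum could also have a drop near or above 1, as GJA5 with 1.5, STAT5A with 0.98 and RASGRP4 with 0.89. The relatives were picked with their values known, and the difference between members and eligible relatives is fixed by the selection.

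**Figure D5:**
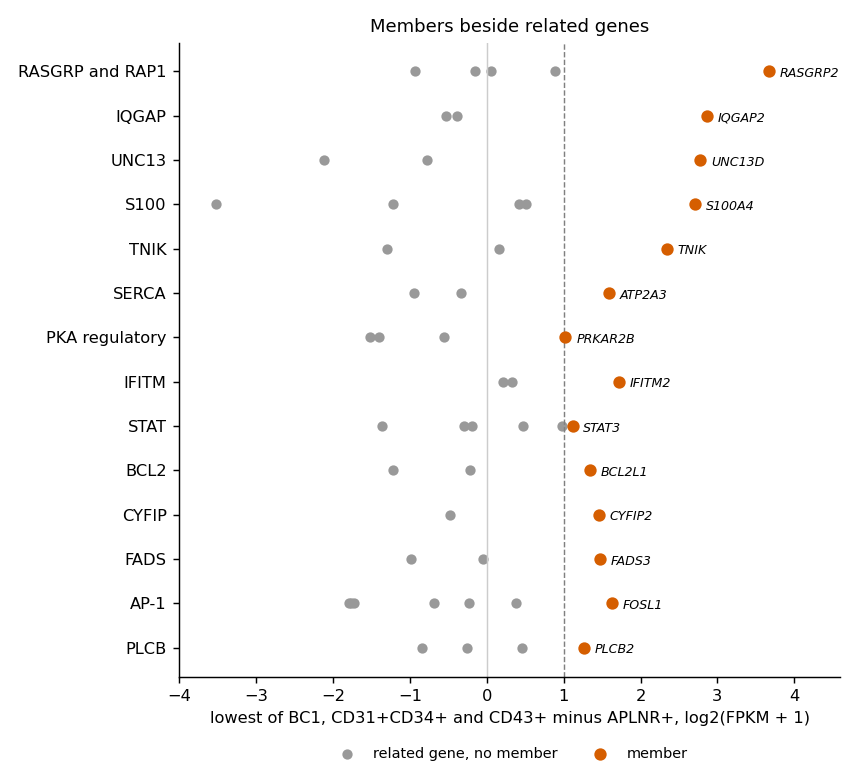
For 14 gene families, the horizontal axis gives the level in the lowest of BC1, CD31+CD34+ and CD43+ minus that in APLNR+, on the log2(FPKM + 1) scale, for members (orange) and related genes with 1 FPKM or more in a library (grey). The dashed line at 1 is the threshold, which members pass by selection, and most related genes lie below 0. The share of all eligible genes below 0 is not shown.

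Pathway lists written from general knowledge held few of the members. The share of members over all eligible genes was 1.3%, against which the list counts are to be read. Of 42 lists, 29 held none, and 74 of the 97 members were in no list. The interferon and antigen presentation list had 3 members (IFITM2, HLA-B and STAT3) among 18 eligible genes (16.7%), the adhesion and matrix list 4 among 33 (12.1%), with CD82, CLDN10 and COL18A1 among the 4, the immediate early list 2 among 17 (11.8%) and the p53 target list 2 among 20 (10%). These shares rest on 2 to 4 genes each. In the interferon list the median log2 difference of APLNR+ was -0.16 from BC1, -0.89 from CD31+CD34+ and -2.44 from CD43+. Over all 7458 eligible genes it was 0.04, 0.01 and 0.08 in the same order. For the adhesion list the medians were -0.15 from BC1, -1.13 from CD31+CD34+ and 0.11 from CD43+. Wnt signaling held SFRP1, Notch JAG2, receptor tyrosine kinase signaling KIT, and the solute carriers SLC29A1 and SLC37A1.

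Gene type, length and promoter sequence were not used by the selection. Protein-coding genes made up 91.8% of members and 96.5% of eligible genes, and lincRNAs 3.09% (3 genes) and 0.442%. The median transcript length was 1494 bases against 1533, and the median span of the gene 31317 against 28553 bases.

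A RefSeq promoter of 300 bases, 250 before to 50 from the start, was found for 69 members and 6087 eligible genes. Their median GC content was 69% against 65.7%. A ratio of observed over expected CpG of 0.6 or more was present in 52 of the 69 (75.4%), beside 89.7% of eligible genes and 49.0% of all 27305 promoters. The 10 motifs searched, on both strands, were chosen after the members were known. CAGGTG was in 11 member promoters (15.9%), S100A4 and JAG2 among them, beside 15.8% of eligible genes and 20.6% of all promoters. The ETS core CCGGAA was in 15 (21.7%), RASGRP2 and STAT3 among them, beside 34.6% and 17.6%. CCAAT was in 23 (33.3%), TIE1, TEK and ITGA2B among them, beside 38.7% and 35.7%. These shares were close to or below those of eligible genes.

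The other motifs searched were each in 4 or fewer member promoters. AGATAA, read by GATA factors, was in 2 member promoters (2.90%), beside 4.14% of eligible genes and 10.5% of all promoters. TGTGGT, read by RUNX factors, was in 4 (5.8%), beside 8.5% and 13.1%. GGTGTGA of T-box factors was in 1 (1.45%), beside 2.58% and 3.43%, and ACAATG of SOX factors in 1, beside 5.70% and 11%. TTCNNNGAA of STAT factors was in 3 (4.35%), beside 6.02% and 7.88%. TGANTCA of AP-1 was in 3 (4.35%), beside 3.58% and 7.76%, and TATAAA in 3 (4.35%), beside 4.37% and 12%. A match is a description of letters only. Members without an entry included AC005255.1, AC027309.2, ACAP1, AL160408.2, AP001453.3, ATP2A3, CAVIN1, CRACR2B, DBNDD2, FAR2P1, FLJ20021, FOSL1, GJA4, IFITM2, LRRC75A, METTL7A, PGPEP1, PLCB2, PPM1J, RRM2B, SFRP1, SLCO4A1, TDRP, TESC, TMEM55A and UNC13D.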

How the data were processed

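RNA sequencing libraries of 4 populations, 1 each, were compared. The values deposited by the authors are FPKM per gene, in 1 table, and per the labels its making involved BWA, Bowtie, RSEM and hg19, with no versions given. The loci of the table instead match GENCODE 29 on GRCh38, where 55647 of 58274 identifiers (95.5%) have the same version, and positions here are those of GRCh38, with the first base as 1. Strand use in counting is not given in the sources used here, and 56 of the 97 members overlap a gene on the other strand. Rows of one identifier were summed, and levels were compared as log2(FPKM + 1), which understates the differences of low genes.

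FPKM values are not counts, so no count model was used. Depth was fitted from the steps between low values of genes with 1 transcript, after a check on simulated data. With it, 92.4% to 94.5% of these values came within 0.1 of whole fragments. Fragments per gene used the median length of its transcripts, less 260 or 280 bases, and genes with too short a transcript got no estimate. Intervals are exact Clopper-Pearson.

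The members and lists were chosen with earlier results of these data known. Named were the 25 protein-coding members and the 5 others with the largest drop, 3 genes on each side of the threshold, members in a list, the 5 highest per library and the 10 lowest in APLNR+. Remaining members were named to account for the set, except that some items are not reported here, and related genes after their values were seen. Alternatives covered the minimum, the difference, the pseudocount, the summing of rows, the left-out symbols, rescaling of libraries, gene type and counting error. Python 3.11.15, pandas 2.3.3, numpy 2.4.6, scipy 1.17.1 and matplotlib 3.10.9 were used.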

Additional observations from a re-analysis of the deposited data

How the results depend on the processing

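Of 59 alternative values of 9 results, 39 stayed within 1.5 times the value given or, for the median drop, within the median half-width of the log2 counting intervals, 0.31. With a minimum of 1 FPKM there were 184 members, including all 97, with 77 under 1 FPKM in APLNR+, 25 highest in BC1 and 13 lower in CD43+ than in BC1, beside 816 genes low only in CD43+ and 650 high only in APLNR+. With a minimum of 10 FPKM there were 60 members, 3 of them under 1 FPKM in APLNR+, beside 45 genes low only in CD31+CD34+ and 304 low only in CD43+. With a difference of 1.5 there were 35 members. With a difference of 2 there were 16, with a median drop of 2.55, 3 highest in BC1 and 2 lower in CD43+ than in BC1, beside 62 genes low only in BC1, 7 in CD31+CD34+, 167 in CD43+ and 178 high only in APLNR+. Among protein-coding genes alone, 3 members were under 1 FPKM in APLNR+. These changes follow from how each alternative is built. Rescaling by median ratios gave 106 members, including all 97, and rescaling to equal totals gave 100, of which 95 were shared.

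No paired analysis was possible because each population had 1 library, and for the same reason the design has no version without a library. Depth limits the lowest values most, since TESC, CD82 and AC009005.1 rested on about 6, 5 and 5 fragments in APLNR+. UNC13D and RASGRP2 rested on about 11 and 13. These numbers depend on the transcript length assumed for each gene. Culture, sort and population cannot be told apart in these libraries.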
